A study of Ctenopharyngodon idella with 2 samples.

Results

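Genes whose whole span is counted as transcript, with no room for an intron, numbered 1160 among the 27929 gene IDs listed for the spleen of grass carp (Ctenopharyngodon idella), a farmed cyprinid fish. They were chosen from IDs that give a sequence name, a start and an end. A gene was taken when it had at least 20 counts over both libraries and when its length, recovered from its count and its FPKM (fragments scaled per kilobase and by the library total), equalled its span. That is 6.11% of the 18972 positioned genes with enough counts. The rule used no difference between the treatments. The high temperature group and the normal temperature group each held 1 spleen library, so no difference has a replicate check and no p-value is given. The sources used here state neither the temperatures nor the exposure time, and nothing on the number, age or strain of the fish. The labels put the words heat stress on both samples as their treatment, and the groups follow the sample descriptions.

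Most vertebrate genes are split by introns, which are removed from the RNA by splicing before the message leaves the nucleus. Well-known exceptions are the replication-dependent histone genes, many genes of G protein-coupled receptors, and retrocopies, which arise when a spliced message is copied back into the genome. The heat-inducible Hsp70 genes of many animals also lack introns, and severe heat shock is known to block splicing in cultured cells of several species. The spleen of bony fishes filters blood, stores red cells and houses lymphocytes and macrophages. The RefSeq gene table used here pairs 0 of the IDs with a name, so no member can be assigned to any of these families. Spleen markers likewise could not be looked up, and no sequence is shown because no file used here holds one for these IDs. In a whole organ, fewer cells of a type and less RNA per cell cannot be told apart.

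The 1160 genes were set off from the rest by the difference between span and length. Span and length were equal in these genes. Where the span was the longer, it differed by 1 base in 2 genes, and the next smallest difference was 38 bases, with 0 genes between. In all, 184 genes had a span longer than the length by 1 to 100 bases. Among the other genes with a positive difference, the median was 5774 bases. The 2 genes just outside the rule were 4733 and 5569 bases long, and their lengths carry rounding errors of 0.558 and 0.649 bases, so they may belong inside. The first had 42 counts at high and 29 at normal temperature, and the second had 50 and 26 in the same order. At the other edge of the rule, 16 members had exactly 20 counts, and 19 genes with length equal to span had 19. In all, 1092 genes with length equal to span had from 1 to 19 counts. In 18 measured genes the length exceeded the span, by more than 3 bases in each. The rounding error of the length was at most 0.2 bases in 1145 members. It was above 0.5 bases in 7, where equality is uncertain. An intron in an untranslated end that the gene models leave out would not be seen by this rule.

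**Figure D1:**
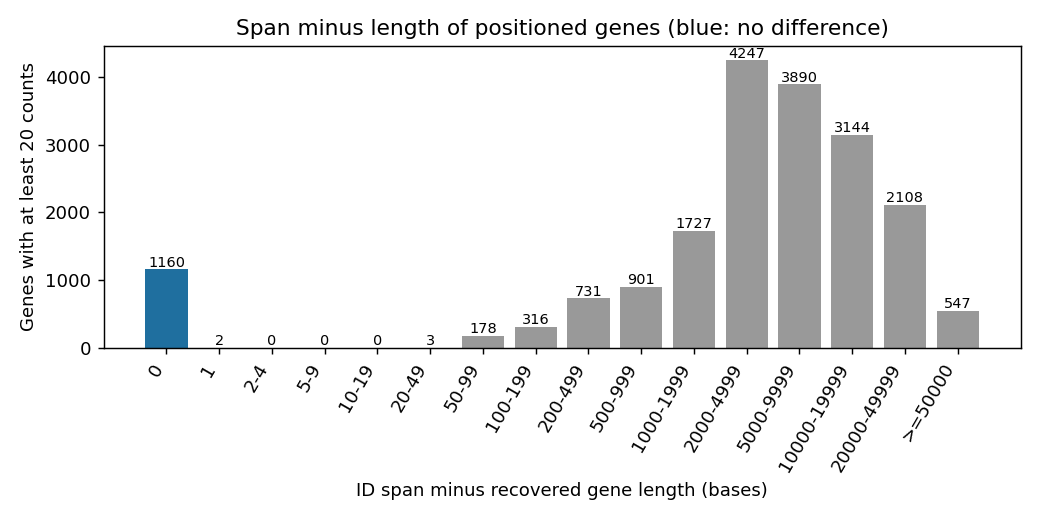
Number of positioned genes with at least 20 counts (y axis) by the span given in the ID minus the recovered gene length in bases (x axis, uneven classes). The 1160 genes with no difference (blue) are set off from those with a longer span, of which 2 differ by 1 base and the next by 38 bases. The 18 genes with a length above the span are not drawn.

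Members were shorter than the other genes. Their length ran from 150 to 7053 bases with a median of 691, against a median of 1257 among the 17812 others. The share of genes that are members was 38.7% from 150 to 199 bases, 17.0% from 300 to 399 and 5.40% from 700 to 799. It was again larger, 9.74% (84 of 862 genes), from 1000 to 1099 bases, and it was 0.921% at 3000 bases and above. On sequences with 5 or more listed genes the share from 1000 to 1099 bases was 9.07%, against 4.54% from 700 to 799. Single lengths recurred: 707 members had the same length as at least 1 other member. Shared lengths were not counted among the other genes, so this is not shown to be particular to members. The most frequent length was 303 bases, with 9 members on 8 sequences. The length of 300 bases had 8 members, and the lengths of 285, 312, 336, 375, 1044 and 1065 bases had 7 each.

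**Figure D2:**
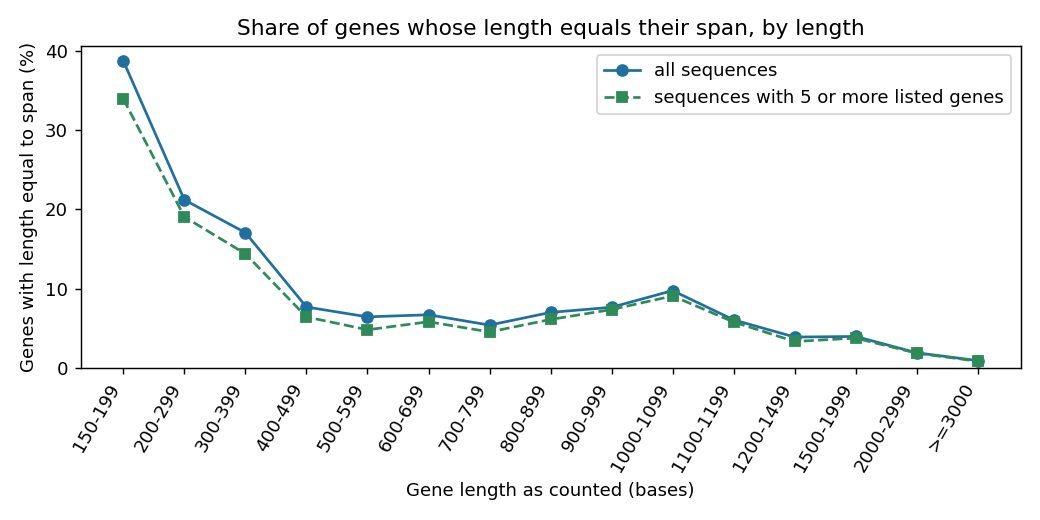
Percent of positioned genes with at least 20 counts whose length equals their span (y axis) by gene length in bases (x axis, uneven classes). Circles give all sequences and squares those with 5 or more listed genes. Both fall from the shortest class and have a second, lower peak from 1000 to 1099 bases, at 9.74% and 9.07%.

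Members were unevenly placed on the assembled sequences. Of the 1160, 249 (21.5%) were the only gene listed on their sequence, against 4.47% of the others. A further 900 lay on sequences with 5 or more genes, and 11 on sequences with 2 to 4. Among all measured genes that are alone on a sequence 23.8% were members, and among those with 5 or more genes on the sequence 5.08%. Neither comparison was matched on length. Other genes had a median length of 482 bases when alone and of 1308 on sequences with 5 or more genes. From 300 to 399 bases the member share was 17.0% over all sequences and 14.4% on those with 5 or more genes. The part of length in the uneven placement was not tested. The lone members had a median length of 395 bases, against 482 for lone other genes. Of the lone members 80 (32.1%) started in the first 100 bases of their sequence, against 20.8% of the lone others. The last base of lone members lay at most 13573 bases into the sequence. Of their lengths with a rounding error of at most 0.2 bases, 49.0% were multiples of 3, as were 48.9% of such lengths of lone other genes. Members on sequences with 5 or more genes had a median length of 837 bases. Of their lengths recovered with the same precision 81.2% were multiples of 3, against 77.7% for the others there. Whether lone members are whole genes or pieces of a gene on a short assembled sequence was not tested. Where another gene was listed on the sequence, the median distance to the nearest one was 3221 bases for members and 3329 for others. Of the members, 1 overlapped another listed gene and 0 lay inside one.

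Members were expressed at lower levels than other genes of like length in both libraries. Their FPKM ran from 0 to 1823 at high temperature, with a median of 6.68 and quartiles of 2.67 and 16.8. At normal temperature it ran from 0 to 2622, with a median of 5.56 and quartiles of 2.26 and 14.9. The others, weighted so that each of 5 length classes had the members' share, had a median of 10.7 FPKM at high and 10.005 FPKM at normal temperature. The classes were cut at the members' quantiles, so the matching is coarse. The class of the longest genes was open-ended, with others of up to 102623 bases against 7053 for members. On the log2(FPKM + 0.01) scale the members' median level was lower by a difference of -0.68 at high and -0.85 at normal temperature. Its size depended on the count minimum: with a minimum of 1 count the differences were -1.62 at high and -1.85 at normal temperature, and with 100 counts -0.45 and -0.65. Lone members had a median of 4.93 FPKM at high and 4.43 FPKM at normal temperature, and members on sequences with 5 or more genes had 7.22 and 6.07 FPKM. At 100 FPKM or more were 58 members (5%) at high and 44 (3.79%) at normal temperature, against 8.86% and 8.90% of the length-weighted others. All of these shares and medians hold for genes that passed the count minimum. A short gene needs a higher FPKM than a long one to reach 20 counts.

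**Figure D3:**
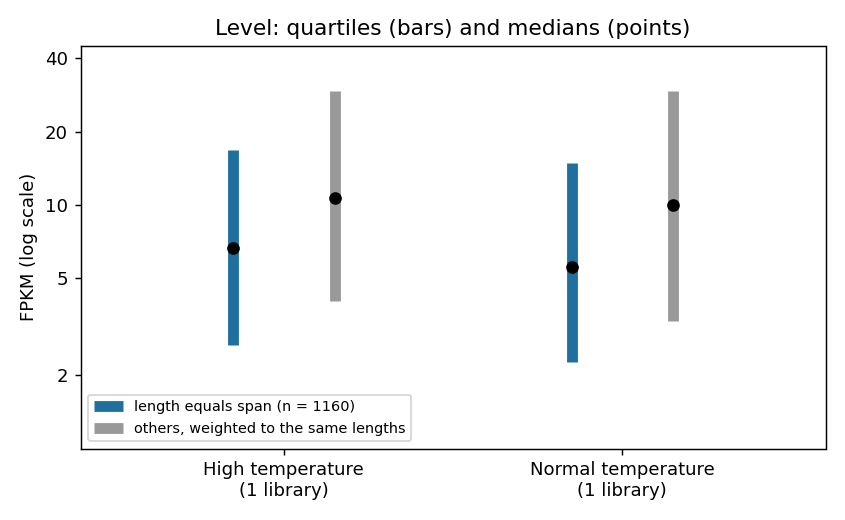
FPKM on a log axis (y) in the high and the normal temperature library (x, 1 library each). Bars span the lower to the upper quartile over genes and points mark medians; blue is the 1160 members and grey the other genes weighted to the same lengths. Member medians are 6.68 and 5.56 FPKM, against 10.7 and 10.005 FPKM for the others.

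Together the members took 447824 of 20936717 counts (2.14%) at high temperature and 315802 of 16658918 counts (1.90%) at normal temperature. The libraries were scaled to each other with edgeR's TMM factors over all genes, and every ratio here is high over normal temperature after that scaling. The summed ratio was 1.01 (95% counting interval 1.003 to 1.012), and 1.13 with library totals. The 10 members with the most counts held 30.8% of the members' counts at high and 37.0% at normal temperature. Lone members summed to 48723 counts at high and 36251 at normal temperature, a ratio of 0.955 (0.942 to 0.968) that is 1.07 with library totals. Of these sums, the 10 lone members with the most counts held 55.5% at high and 59.8% at normal temperature. Across the 1160 members the FPKM of the libraries had a Spearman's rho of 0.889, against 0.934 across the others. Both are descriptions across genes that share the same 2 libraries, and members are the sparser genes.

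The 5 most abundant members did not share a direction. The first, 651 bases long on CI01000140 from 1396774 to 1397424, had 1197 FPKM (16312 counts) at high and 2622 FPKM (28436 counts) at normal temperature. Its ratio was 0.408 (0.40 to 0.416), which lies wholly below 0.5. The second, of 229 bases on CI01000050 from 6704526 to 6704754, had 1823 FPKM at high and 1632 FPKM at normal temperature, a ratio of 0.998 (0.966 to 1.03). After TMM scaling these libraries thus differed for the first gene by more than counting error and not for the second. The result for the second depends on the scaling. The factor of high over normal temperature was 1.41 with TMM and 1.26 with library totals, which would place its interval above 1. A gene of 396 bases on CI01000006, from 4535347 to 4535742, had 1488 FPKM at high and 1830 FPKM at normal temperature, a ratio of 0.726 (0.708 to 0.745). A gene of 375 bases on CI01000066, from 159322 to 159696, had 1169 FPKM at high and 1192 FPKM at normal temperature, a ratio of 0.876 (0.85 to 0.903). This ratio also depends on the scaling, as library totals would make its interval include 1. The fifth, of 507 bases on CI01000329 from 592538 to 593044, had 1366 FPKM at high and 690.3 FPKM at normal temperature, a ratio of 1.77 (1.71 to 1.82). Positions are as the IDs give them, on a build that the sources used here do not name.

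Of the 51 members with a mean of at least 100 FPKM over both libraries, 40 had an interval wholly between 0.5 and 2. The share of other genes with such an interval is not given. Higher than 2-fold beyond counting error were 6 of the 51 members (11.8%) and lower 3 (5.88%). Of the 1032 other positioned genes at that level, not matched on length, 50 (4.84%) were higher and 125 (12.1%) lower. Over all measured genes the shares were 4.89% and 4.39%. The largest ratio among these was that of a gene of 756 bases on CI01000070, with 306.1 FPKM at high and 42.6 FPKM at normal temperature, a ratio of 6.41 (5.86 to 7.02). A gene of 1172 bases on CI01000407 had 194 FPKM at high and 30.5 FPKM at normal temperature, a ratio of 5.68 (5.21 to 6.19). A gene of 250 bases, alone on CI01161026, had 532 FPKM at high and 135 FPKM at normal temperature, a ratio of 3.52 (3.22 to 3.86). These 3 genes were singled out after their values were seen. All 3 had more than 3 times as much FPKM in the high temperature library.

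Over all members, higher genes were those whose exact Clopper-Pearson 95% interval of the ratio had its low end above 2, and lower genes those with its high end below 0.5. Of the 1160 members 65 (5.60%) were higher at high temperature, where 4.89% of all 19006 measured genes were, and 41 (3.53%) were lower, where 4.39% of all measured genes were. In other genes weighted to the members' share of 5 length by 5 abundance classes, 4.60% were higher and 3.48% were lower. Those shares would give 53.3 higher and 40.4 lower genes among 1160. The members' counts thus stood near the background in both directions. Beyond 4-fold 20 members (1.72%) were higher and 8 (0.69%) lower, against 1.04% and 0.831% of all measured genes and 1.01% and 0.697% of the weighted others. With library totals, which raise the ratios of all genes alike, 81 members were higher and 33 lower beyond 2-fold. The shares over all genes are not given for that scaling, so these 2 counts cannot be set against the background above. The intervals cover counting error only, and the spread between fish is unknown. An interval wholly between 0.5 and 2 was found in 529 members (45.6%), and in 525 (45.3%) the counts could not place the gene inside or beyond 2-fold. These 2 shares depend on count depth and are not given for other genes, so they are no result about members. Members had a median of 94 counts at high and 61 at normal temperature, against 224 and 169 in the others.

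**Figure D4:**
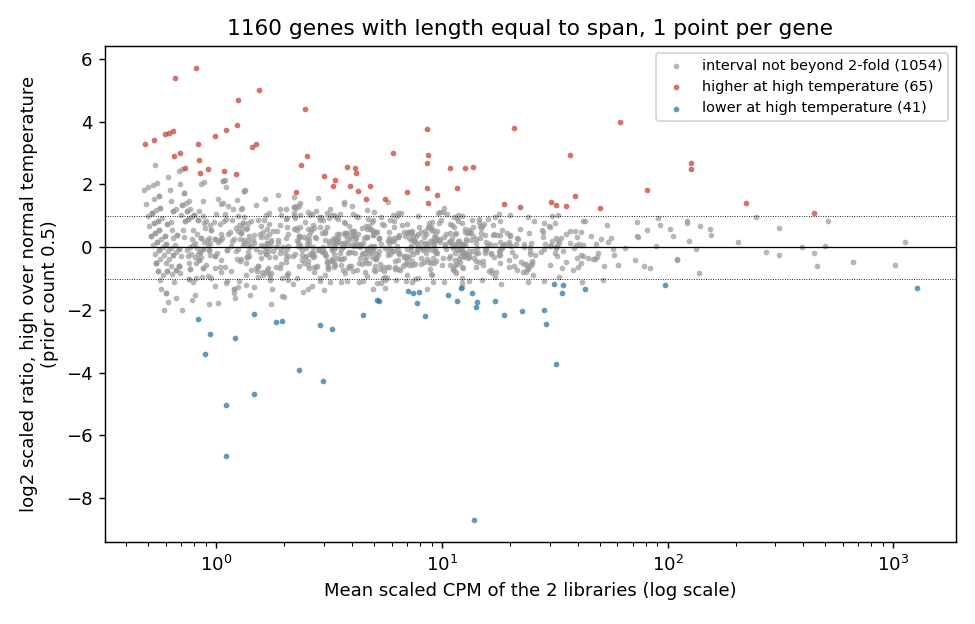
Log2 scaled ratio, high over normal temperature, with a prior count of 0.5 (y axis) against the mean scaled CPM of both libraries (counts scaled by the TMM-adjusted library total) on a log axis (x), 1 point per member. Red marks the 65 higher and blue the 41 lower members; dotted lines mark 2-fold. Called genes occur over the whole range of levels, and the most abundant member is among the lower ones.

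The higher members were mostly sparse at normal temperature, but their selection favours this and it is no separate finding. The call itself requires a lower scaled count at normal than at high temperature. The count minimum applied to both libraries together. Many of the higher members were below that minimum at normal temperature and met it through their high temperature counts. Their median count was 147 at high and 21 at normal temperature, and their median FPKM was 9.71 at high and 1.14 at normal temperature. They lay on 57 sequences, had a median length of 873 bases, and 14 of the 65 were alone on their sequence. The lower members had a median of 86 counts at high and 189 at normal temperature, or 5.69 FPKM at high and 21.7 FPKM at normal temperature. They lay on 35 sequences, had a median length of 421 bases, and 10 of the 41 were alone on their sequence. Some of the lower members were likewise below the count minimum at high temperature and met it through their normal temperature counts.

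By the bound of the interval nearest to no difference, 2 IDs led in each direction. CI01000069_00000091_00001650, 1560 bases long and near the start of a sequence with 228 listed genes, had 2579 counts at high and 114 at normal temperature, or 79.0 and 4.39 FPKM in the same order. Its ratio was 16.1 (13.3 to 19.6), and each library alone held more than the minimum of 20 counts. CI01012525_00000065_00000439, a gene of 375 bases and the only one on its sequence, had 866 counts at high and 44 at normal temperature, or 110.3 and 7.04 FPKM. Its ratio was 14.0 (10.3 to 19.4). In the opposite direction stood CI01098000_00000053_00000454, of 402 bases and also alone on its sequence, with 0.119 FPKM at high and 65.4 FPKM at normal temperature. It had 1 count at high and 438 at normal temperature, and its ratio was 0.0016 (4.1e-05 to 0.0091). By that counting interval it was at least 110-fold lower at high temperature. CI01000262_00018185_00022768, of 4584 bases on a sequence with 3 listed genes, had 0 counts at high and 35 at normal temperature. Set against the 3 counts that a count of 0 allows, it was 16.4-fold lower at high temperature, and by its counting interval, which also covers the error of the 35 counts, at least 12.7-fold. Genes with so few counts in 1 library reach extreme ratios with very wide intervals.

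Besides that gene, 2 members had a count of 0 in a library, in both cases that of normal temperature. They were 285 and 245 bases long and had 29 and 36 counts at high temperature, which is 6.87-fold and 8.53-fold higher against the same floor of 3 counts. By their counting intervals they were at least 5.24-fold and 6.59-fold higher. A count of 0 allows up to 0.143 CPM (counts scaled by the unadjusted library total) at high and 0.18 CPM at normal temperature. The longest member, of 7053 bases on CI01000000, had 331 counts at high and 36 at normal temperature. Its FPKM was 2.24 at high and 0.306 at normal temperature, a ratio of 6.53 (4.62 to 9.49).

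The members as a group sat slightly above genes of like length and abundance. Their median log2 ratio was 0.08 with quartiles of -0.42 and 0.61, against 0.003 with quartiles of -0.47 and 0.55 in the weighted others and -0.0085 over all measured genes. The difference of medians was 0.08 on the log2 scale, small beside the spread of single members. A ratio above 1 was found in 54.5% of members and 50.2% of the weighted others. Library totals place every ratio 0.16 higher on the log2 scale, which gives the members a median of 0.25. No test of this difference was possible with 1 library per treatment.

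That small difference was unevenly spread over abundance and length. Among the 20% of members with the lowest level, up to 1.16 scaled CPM, the median log2 ratio was 0.29, below the 0.37 of others of like length and abundance. In the next class, up to 2.87 scaled CPM, it was 0.09 against 0.10. Among the most abundant 20%, from 13.7 scaled CPM upward, it was 0.03 against -0.15. The members' medians in the upper 3 of 5 abundance classes were 0.05, 0.05 and 0.03, against -0.004, -0.13 and -0.15 in the others weighted by length. Without that weighting the others had 0.04, -0.10 and -0.10. Whether members and others change differently with abundance was not tested. By length, members from 600 to below 1200 bases were farthest from the weighted others, with a median log2 ratio of 0.15 against -0.03. Of these 396 members 27 (6.82%) were higher and 6 (1.52%) lower, against 4.17% and 3.94% of the weighted others. Below 300 bases the members' median was -0.06 against -0.05, with 8 of 205 (3.90%) higher and 9 (4.39%) lower, against 4.40% and 1.99% of the weighted others. From 300 to below 600 bases it was -0.02 against 0.01, with 12 of 305 (3.93%) higher and 15 (4.92%) lower, against 3.51% and 4.22%. From 1200 to below 2000 bases it was 0.14 against 0.02, with 11 of 183 (6.01%) higher and 9 (4.92%) lower, against 5.68% and 3.82%. At 2000 bases or more it was 0.19 against 0.12, with 7 of 71 (9.86%) higher and 2 (2.82%) lower, against 6.16% and 2.02%. By location, the 900 members on sequences with 5 or more genes had a median of 0.10 against -0.01. The 249 lone members had 0.03 against 0.04, and a wider spread, with an interquartile range of 1.29 against 0.97 in the 900. In the weighted others that range was 1.15 among lone genes and 0.97 on sequences with 5 or more genes. A wider spread of lone genes was thus not particular to members. Lone members are the sparser ones, and the part of counting noise in that spread was not tested.

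**Figure D5:**
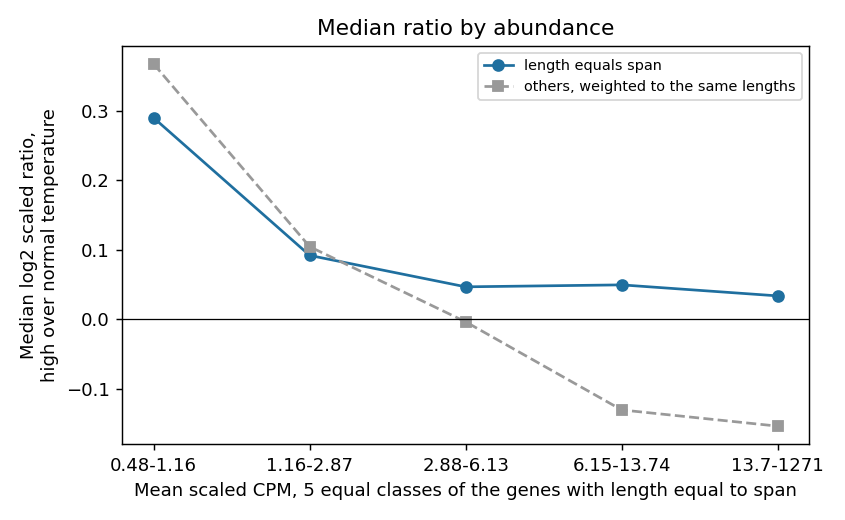
Median log2 scaled ratio, high over normal temperature (y axis), in 5 classes of mean scaled CPM that hold 232 members each (x axis). Circles are members and squares the other genes of the class weighted to the members' lengths. Members lie below the others in the sparsest class (0.29 against 0.37) and slightly below in the next (0.09 against 0.10). They lie above the others in the most abundant class (0.03 against -0.15).

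Genes of equal length could differ in direction. Over the 12 lengths held by 6 or more members, 7 of 83 members (8.43%) were higher and 2 (2.41%) lower, where 4.89% and 4.39% of all measured genes were. The 7 members of 375 bases lay on 7 sequences, and 2 were higher and 1 lower at high temperature. Their FPKM ran from 2.04 to 1169 at high and from 0.64 to 1192 at normal temperature. The lower one, on CI01000016, had 25.1 FPKM (197 counts) at high and 92.2 FPKM (576 counts) at normal temperature, a ratio of 0.243 (0.206 to 0.286). One of the higher ones, on CI01000034, had 43.3 FPKM (340 counts) at high and 4.96 FPKM (31 counts) at normal temperature, a ratio of 7.79 (5.39 to 11.7). The other higher one is the lone gene on CI01012525 described above. Of the 6 members of 317 bases 2 were higher, and of the 9 of 303 bases 1 was lower. The lengths of 285, 1065 and 1068 bases had 1 higher member each, and the other recurring lengths had 0 in either direction.

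Some members lay side by side. Adjacent listed genes were both members in 67 pairs with 121 members, and runs of at least 3 members numbered 11 with 35 members. The most abundant run, on CI01000066 from 159322 to 180183, held genes of 375, 405, 357 and 405 bases and summed to 12814 counts at high and 10092 at normal temperature. Its 3 abundant genes had ratios of 0.876, 0.97 and 0.978, and the sparse one, with 20 counts at high and 3 at normal temperature, had 4.74 (1.40 to 24.9). In 3 runs every gene had a ratio below 1. On CI01000063, from 805911 to 811849, the 3 genes had 122, 143 and 117 counts at high and 247, 220 and 163 at normal temperature. Their sum gave a ratio of 0.431 (0.378 to 0.49), and the single ratios were 0.351, 0.462 and 0.51. On CI01000006, from 6122278 to 6142925, the 3 genes had 177, 5 and 104 counts at high and 414, 15 and 158 at normal temperature, and their sum gave 0.346 (0.30 to 0.399). The 3 genes on CI01000029, from 7468989 to 7506541, summed to 0.682 (0.648 to 0.719). In 2 runs every gene had a ratio above 1. The run on CI01000009, from 15667251 to 15694538, held 279, 125 and 402 counts at high and 145, 45 and 178 at normal temperature, a summed ratio of 1.56 (1.37 to 1.77). The run on CI01000325 had a summed ratio of 1.24 (0.991 to 1.54), which does not exclude 1. In the run on CI01000339 the genes differed, with ratios of 0.635, 0.92 and 3.72. Sums blend genes of unlike ratio. Runs of other genes were not examined, so a shared direction within runs is not shown to be particular to members.

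Neighbouring members of nearly equal length were few. In 6 of the 67 pairs the lengths differed by at most 10 bases, and the genes of a pair may share reads if they are near-identical copies. A pair of 1170 bases each on CI01000027 had 84 counts at high and 100 at normal temperature in the first gene, and 3 and 26 in the second. Their ratios were 0.597 (0.441 to 0.806) and 0.082 (0.0159 to 0.268), with intervals that do not overlap. A pair of 1176 and 1182 bases on the same sequence had 974 counts at high and 552 at normal temperature in the first gene, and 1369 and 1297 in the second. Ratios of 1.25 (1.13 to 1.39) and 0.75 (0.695 to 0.81) placed these neighbours on opposite sides of 1. Over the 77 pairs of adjacent measured genes that were both members, the log2 ratios had a Spearman's rho of 0.334. It was 0.163 over 1617 pairs of a member and another gene and 0.119 over 15793 pairs of others. These are descriptions across genes, the pairs share both libraries, and the difference between them was not tested.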

How the data were processed

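Spleen RNA was extracted with Trizol and sequenced as Illumina libraries, per the labels' protocols. CASAVA 1.7 (base calls) and HISAT (spliced alignment) appear in the submitters' processing notes without further settings. Counting tool, annotation, build and strandedness: not given in the sources used here. Deposited by the authors were raw whole-number counts per gene ID, which sum to 20936717 at high and 16658918 at normal temperature. The authors' deposited FPKM are those counts divided by gene length and column total, so they are no second measurement. Inverting that formula in the library with the higher count gave each gene's length, which was rounded.

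Counts were scaled with edgeR 4.0.16 TMM factors (R 4.3.3). With 1 library per group, edgeR's quasi-likelihood test could not be fitted. Exact Clopper-Pearson 95% intervals of the high temperature share were turned into intervals of the ratio; they treat reads as independent and may be too narrow. Log2 ratios carry a prior count of 0.5. Others were weighted by class, with none drawn at random. The counting rule, length recovery and weighting were tested on simulated data. The simulated counts carried counting error but no spread between fish, and their gene lengths came from these data. Named by rule were the 2 IDs with the highest lower bound, the 2 with the lowest upper bound, the 5 with the highest mean FPKM, the longest member and the runs of 3 or more. The members, classes and alternatives were chosen with earlier results of these data known. Alternatives were other scalings (DESeq2 1.42.0 size factors among them), count minimums, membership rules, matchings, bounds, intervals and pseudocounts. Python 3.11.15, numpy 2.4.6, scipy 1.17.1, pandas 2.3.3 and matplotlib 3.10.9 were used.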

Additional observations from a re-analysis of the deposited data

How the results depend on the processing

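The members' median log2 ratio and its difference from the weighted others were above 0 in all alternatives run, but several could hardly alter them. Matching leaves the members' own median as it is, and a scaling moves members and others alike. The members' level was below that of length-matched others in all 10 alternatives run for it. Several of these could hardly alter it either, and none varied the number of length classes. The median log2 ratio was 0.25 with library totals, 0.22 with upper quartile scaling, 0.21 with totals without the 10 most abundant genes, 0.24 with a minimum of 1 count, and 0.19 and 0.24 on the authors' FPKM with pseudocounts of 1 and 0.1. Its difference from matched others was 0.13 with matching on length only, 0.025 on abundance only and 0.14 with a minimum of 100 counts. There were 2252 members with a minimum of 1 count and 722 with 100. Higher members numbered 41 of the 722 with a minimum of 100 counts. Of the 1160 they numbered 42 with the stricter confidence level, 129 and 20 with bounds of 1.5-fold and 4-fold, and 174 without an interval. Lower members numbered 84 and 8 with those bounds and 108 without an interval. Among these settings the shares over all measured genes are given only for 4-fold, 1.04% higher and 0.831% lower. The other counts cannot be set against a background. The log2 FPKM difference at high temperature was -1.62, -0.51 and -0.45 with minimums of 1, 50 and 100 counts, and -0.50 without lone members (lone others kept). At normal temperature it was -1.85, -0.69, -0.65 and -0.68 in the same order. With single libraries none could be dropped. No paired analysis was possible because the groups hold 1 library each.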
